A study of Ovis aries with 8 samples.

Results

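The genes of the proteasome were followed in perirenal fat of callipyge and normal lambs. They were taken as all probe sets of the array whose only gene symbol begins with PSMA, PSMB, PSMC, PSMD or PSME, and each gene was read from its brightest probe set, judged by its mean over the 8 arrays. This gave 36 genes on 42 probe sets, of 9155 genes with a symbol of their own and 24016 bovine probe sets in all. The genes fall into 13 of the 14 constitutive subunits of the core particle, 13 of the 17 subunits of the 19S regulatory particle that carry such symbols, all 5 immunoproteasome genes, the 3 assembly chaperones PSMD5, PSMD9 and PSMD10, the activator PSME4, and PSME3IP1, whose symbol meets the rule although it encodes a binding partner of an activator and not a subunit. PSMA2, PSMA8, PSMB11, PSMD3, PSMD7, PSMD8, PSMD12 and PSME3 had no probe set with their symbol alone and were not analysed here.

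The study asked whether the callipyge mutation, known for enlarged hindquarter muscles, also alters a tissue other than muscle. Perirenal (kidney) fat came from 8 male lambs of 12 weeks, bred in 1 flock of Dorset/Suffolk/Rambouillet crosses. The 4 NmatCpat lambs carried the callipyge allele from the sire and a normal allele from the dam, the combination that shows the phenotype, and the 4 NmatNpat lambs carried normal alleles from both parents. Each lamb gave 1 array, and the probes were designed on cattle sequence, so a low reading can also come from a mismatch to the sheep transcript.

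The proteasome is the large protease that degrades ubiquitin-tagged proteins. Its core is a barrel of alpha rings, which gate the entry, around beta rings, of which PSMB5, PSMB6 and PSMB7 carry the catalytic sites. The 19S particle caps the barrel, where the PSMC ATPases unfold the substrate and the PSMD subunits bind and strip the ubiquitin. Interferon-gamma induces PSMB8, PSMB9 and PSMB10, which replace PSMB5, PSMB6 and PSMB7 in newly built cores, and the 11S activator subunits PSME1 and PSME2. The resulting immunoproteasome is abundant in immune cells and favours peptides suited to presentation on MHC class I. In fat tissue it can therefore be expressed by resident immune cells as well as by adipocytes.

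The median intensity of the arrays ran from 65.3 to 72.55, and 5 of the 6 measured adipocyte markers were bright, among them ADIPOQ, FABP4 and PPARG with means of 13.09, 13.71 and 12.14 on the log2 scale, while LEP, the hormone leptin, had a mean of 4.92, below the median of all probe sets. A pair of arrays stood apart, those of NmatNpat animal 1, whose 5 neuron markers averaged 5.59 log2 units above their means and whose actin 3'/5' ratio was 26.1 against 4.04 to 11.8 on the others, and of NmatCpat animal 4, whose 5 skeletal muscle markers averaged 1.32 above theirs. The GAPDH 3'/5' ratio of NmatNpat animal 1 was 1.06, within the 0.941 to 1.15 of the others. Among the neuron markers, SYP read 6.80 in that lamb against a mean of 6.48, within the range of the other lambs. NEFL, NEFM, TH and STMN2 carried the average. The muscle markers did not all lie high in NmatCpat animal 4: MYL2 read 7.03 against a mean of 2.73 and ACTA1 9.92 against 8.05, while TNNT3 was at its mean and CKM, at 9.22, was the lowest of the 8 lambs. Results that turn on these arrays are also given without them. The tissue was sampled in bulk, so that fewer cells of a type and less RNA per cell cannot be told apart.

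No proteasome gene met the thresholds for a difference between the genotypes. With limma, 0 of the 36 genes met the study's thresholds, an unadjusted P no higher than 0.05 together with a change beyond 1.5-fold, against 2.91% of all genes, and 0 reached that P at any fold, against 3.79% of all genes. The adjusted p ranged from 0.983 to 0.999, and 0% of all probe sets fell under an adjusted p of 0.05. The log2 differences, NmatCpat minus NmatNpat, ran from -0.26 for PSME3IP1 to 0.39 for PSMC3, or 0.837-fold to 1.31-fold. They lay above 0 in 24 genes and below 0 in 12, with a median of 0.05 against 0.00458 over all genes. This balance rested on few lambs. Without NmatCpat animal 4 there were 17 above 0 and 19 below, and without NmatCpat animal 1 there were 19 above and 17 below. Without NmatCpat animal 4 and NmatNpat animal 1 there were 16 above and 20 below, with a median of -0.02.

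The intervals bound how large a difference could have been missed. The 95% interval of the difference excluded a 1.5-fold change in both directions for 23 of the 36 genes, which is 63.9%, against 25.9% of all genes and 56.3% of the 2289 brightest genes. A 2-fold change in both directions was excluded for 35 of the 36, the exception being PSMB8, against 62.9% of all genes and 91.0% of the 2289 brightest. The genes are bright ones, as all 36 lay above the median level of all probe sets, 5.99, and 30 were among those 2289, whose levels were 8.64 or higher. Tight bounds of this kind held for 11 of 13 core genes and 10 of 13 regulatory genes at 1.5-fold. They held for 0 of 5 immunoproteasome genes, of which PSMB8, PSMB9 and PSMB10 varied most between lambs.

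**Figure D1:**
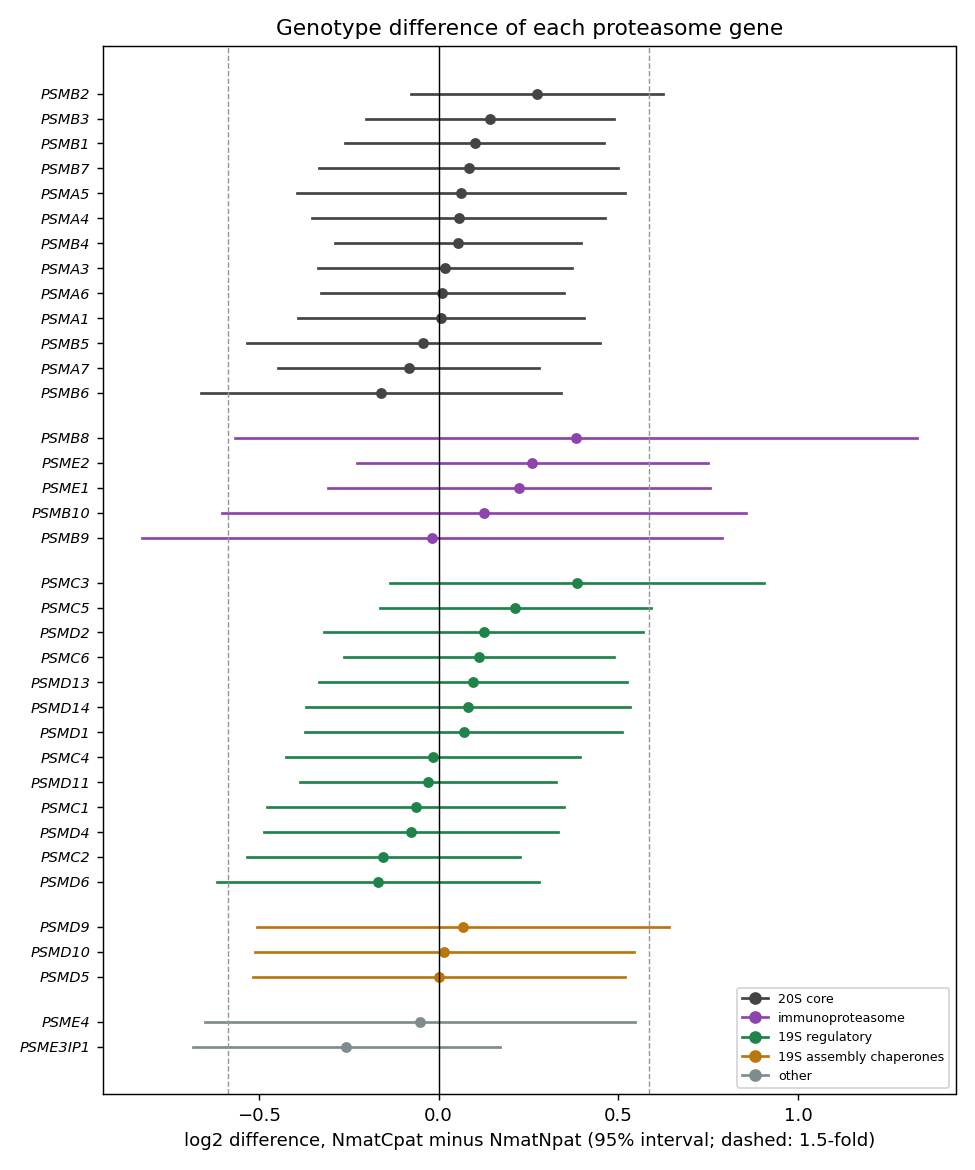
Log2 difference between NmatCpat and NmatNpat (x axis) for each of the 36 genes (y axis, grouped by class), with limma's 95% interval as a bar and dashed lines at a 1.5-fold change either way. Every interval spans 0, and the widest belongs to PSMB8, from -0.57 to 1.33.

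The alpha ring genes had differences close to 0. Its 6 measured genes had differences between -0.08 (PSMA7) and 0.06 (PSMA5), and all 6 intervals excluded a 1.5-fold change. PSMA7, which had the smallest p of the ring, read 12.12, 11.83, 12.03 and 12.19 in NmatCpat animals 1 to 4 and 12.12, 12.18, 11.97 and 12.23 in NmatNpat animals 1 to 4. The genotypes overlapped, with the lowest lamb in NmatCpat and the highest in NmatNpat, and the difference was -0.08 (95% interval -0.45 to 0.28). PSMA6 varied least of all members between lambs of a genotype, with a within-genotype SD of 0.0983, and its means were 12.23 ± 0.05 in NmatCpat and 12.22 ± 0.13 in NmatNpat (SD, n = 4 each).

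The beta subunits without a catalytic site, PSMB1, PSMB2, PSMB3 and PSMB4, had differences of 0.10, 0.27, 0.14 and 0.05. PSMB2 was the member with the smallest p. It read 9.81, 9.94, 9.95 and 10.002 in the NmatCpat lambs and 9.81, 9.47, 9.71 and 9.63 in the NmatNpat lambs. All NmatCpat lambs lay above all NmatNpat lambs, but by less than 0.01 at the nearest pair, the animals numbered 1. PSMB2 was the only 1 of the 36 genes without overlap, 2.78% of them against 2.84% of all genes. The difference was 0.27 ± 0.15 (SE), or 1.21-fold, with an adjusted p of 0.983 by limma and an unadjusted p of 0.0286 by the exact permutation test, the smallest that 4 against 4 allows. A second, dimmer probe set of PSMB2 gave 0.15 (95% interval -0.24 to 0.53), and on it the genotypes overlapped. The brighter probe set carried the suffix _s_at and the dimmer _a_at. The filter on suffixes removed both kinds, so PSMB2 had no value in that alternative.

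The constitutive catalytic subunits had differences on either side of 0. PSMB5, the chymotrypsin-like subunit, read 10.37, 10.05, 10.13 and 10.62 in NmatCpat and 10.74, 10.11, 10.27 and 10.21 in NmatNpat. PSMB6, the caspase-like subunit, read 11.26, 10.77, 10.63 and 10.91 in NmatCpat and 11.19, 10.65, 11.29 and 11.09 in NmatNpat. PSMB7, the trypsin-like subunit, read 11.47, 11.09, 10.98 and 11.20 in NmatCpat and 11.25, 11.26, 10.89 and 11.01 in NmatNpat. The genotypes overlapped for all of these, and the highest lamb was a different one each time. The differences were -0.04, -0.16 and 0.08, each smaller than the SD within either genotype.

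Their inducible counterparts varied far more between lambs. PSMB8 read 10.01, 9.70, 9.21 and 10.60 in NmatCpat and 8.93, 8.96, 9.79 and 10.31 in NmatNpat. PSMB9 read 9.91, 9.43, 9.40 and 10.55 in NmatCpat and 9.48, 9.46, 9.89 and 10.54 in NmatNpat. PSMB10 read 8.65, 8.48, 8.16 and 9.36 in NmatCpat and 8.21, 8.52, 8.29 and 9.12 in NmatNpat. Animal 4 of each genotype was the highest of its group for each of these genes, and NmatCpat animal 4 the highest of all 8 lambs. The genotypes overlapped across most of their range. PSMB8 averaged 9.88 ± 0.58 in NmatCpat against 9.50 ± 0.67 in NmatNpat (SD, n = 4), a difference of 0.38 with an interval from -0.57 to 1.33, which spans 0.676-fold to 2.51-fold. PSMB9 differed by -0.02 (-0.82 to 0.79) and PSMB10 by 0.13 (-0.60 to 0.86). Without NmatNpat animal 1 and NmatCpat animal 4 the differences were -0.05 for PSMB8, -0.38 for PSMB9 and -0.21 for PSMB10. For each gene NmatCpat animal 4 was the highest lamb and NmatNpat animal 1 lay below its genotype mean. Leaving both out therefore lowers the difference by construction.

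The 11S activator subunits were read in the same way. PSME1 was at 10.25, 10.30, 10.56 and 10.85 in NmatCpat and at 10.02, 9.94, 10.50 and 10.59 in NmatNpat. PSME2 was at 10.38, 10.12, 9.91 and 10.52 in NmatCpat and at 9.60, 10.06, 10.18 and 10.07 in NmatNpat. NmatCpat animal 4 was again the highest lamb for both, and the groups overlapped. The differences were 0.22 (95% interval -0.31 to 0.76) and 0.26 (-0.23 to 0.75), and without NmatNpat animal 1 and NmatCpat animal 4 they were 0.02 and 0.04. Over the 5 immunoproteasome genes the median difference was 0.22, with 4 genes above 0, and without the same pair of lambs it was -0.05. As a group these genes were highest in NmatCpat animal 4 (mean deviation 0.66) and lowest in NmatNpat animal 1 (-0.47). Leaving both out thus lowers NmatCpat minus NmatNpat by construction, and the fall is no independent check.

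**Figure D2:**
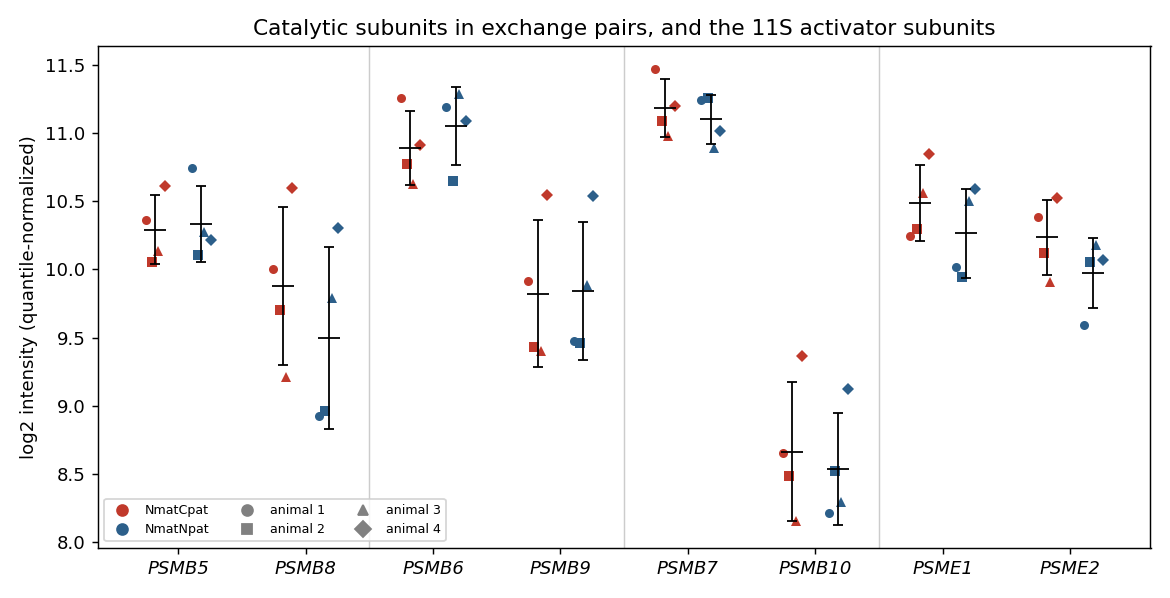
Log2 intensity (y axis) of the constitutive catalytic subunits beside the inducible subunit that replaces each, and of the 11S activator subunits (x axis), with 1 point per lamb, red for NmatCpat and blue for NmatNpat, a shape for each animal number, and the mean ± SD of 4 lambs. The genotypes overlap for every gene shown, and the inducible subunits spread more widely than the constitutive ones; levels of different genes are not comparable.

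Each inducible subunit was also set against the constitutive subunit it replaces, within the same lamb. The value of such a log2 ratio depends on the probes, and only its difference between genotypes can be read. For PSMB8 minus PSMB5 the ratios were -0.36, -0.35, -0.93 and -0.02 in NmatCpat and -1.82, -1.14, -0.49 and 0.09 in NmatNpat. The groups overlapped, and the means differed by 0.42 (two-sided exact permutation p = 0.371, adjusted over the 3 pairs 0.857). The interval from the same permutation test, at a level of at least 95%, was -1.02 to 1.80. PSMB9 minus PSMB6 differed by 0.14 (-0.80 to 1.35, exact permutation p = 0.571, adjusted 0.857). PSMB10 minus PSMB7 differed by 0.04 (-0.93 to 1.20, exact permutation p = 0.914, adjusted 0.914). A shift from constitutive to inducible subunits was thus not detected, and changes of 1.5-fold in either direction were within each of the intervals. Without NmatNpat animal 1 and NmatCpat animal 4 the differences were -0.03, -0.26 and -0.34. In each pair NmatCpat animal 4 had the highest NmatCpat ratio and NmatNpat animal 1 the lowest NmatNpat ratio. Leaving both out therefore lowers the difference by construction.

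Among the 19S ATPases, PSMC3 had the largest difference of all members. It read 11.77, 11.72, 11.53 and 11.87 in NmatCpat and 11.51, 11.59, 11.49 and 10.76 in NmatNpat. NmatNpat animal 4 stood far below the other 7 lambs, and NmatNpat animal 2 alone lay above the lowest NmatCpat lamb. The difference was 0.39 ± 0.22 (SE; 95% interval -0.13 to 0.90), with an adjusted p of 0.983 by limma. Without NmatNpat animal 4 it was 0.19. The other ATPases ran from -0.15 (PSMC2) to 0.21 (PSMC5), and the 6 were split evenly, 3 above 0 and 3 below.

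The non-ATPase subunits of the cap include PSMD4, a ubiquitin receptor, and PSMD14, the enzyme that removes the ubiquitin chain. Their differences were -0.08 and 0.08. PSMD6 had the smallest p among these 7 genes, and read 9.18, 9.20, 8.93 and 9.44 in NmatCpat and 9.31, 9.38, 9.07 and 9.67 in NmatNpat. These ranges overlapped, with a difference of -0.17 (-0.61 to 0.28). The remaining members lay between -0.03 (PSMD11) and 0.13 (PSMD2). Over all 13 regulatory genes the median was 0.07, with 7 above 0 and 6 below, and over the 13 core genes it was 0.05, with 10 above and 3 below. The core count rested on NmatCpat animals 1 and 4. Without animal 4, 6 core genes lay above 0 and 7 below, and the regulatory median was -0.05. Without animal 1, 7 core genes lay above 0 and 6 below.

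The chaperones that build the 19S base, PSMD5, PSMD9 and PSMD10, had differences of 0.00138, 0.07 and 0.02. PSMD9 read 7.52, 7.12, 6.83 and 7.05 in NmatCpat and 7.13, 6.74, 7.57 and 6.80 in NmatNpat. The activator PSME4, also known as PA200, read 10.42, 10.38, 10.17 and 10.22 in NmatCpat and 10.45, 10.98, 9.82 and 10.16 in NmatNpat. Its NmatNpat lambs included both the highest and the lowest of the 8, and the difference was -0.05 (-0.65 to 0.55).

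For 6 genes a dimmer probe set offered another reading of the same gene. Those of PSMB2, PSMC2, PSMC6 and PSMD4 had differences of 0.15, 0.05, -0.27 and 0.08, and the last 3 took the opposite sign of the brightest probe set. The dimmer probe sets of PSMC5 and PSMD6 disagreed by more, at -0.86 (-1.87 to 0.15) and 1.31 (-0.44 to 3.05) against 0.21 and -0.17. Both were faint, with mean levels of 4.88 and 2.74, below the median of all probe sets, and averaging both probe sets of a gene turned PSMC5 to -0.32 and PSMD6 to 0.57. None of the 42 probe sets met the thresholds, against 3.93% of all probe sets.

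The classes differed more in how the lambs varied than in the genotype means. The within-genotype SD had a median of 0.135 over the core genes, 0.193 over the regulatory genes and 0.463 over the immunoproteasome genes. The median was 0.209 over the 2289 brightest genes and 0.353 over all genes. All 5 immunoproteasome genes, but 3 of 13 core genes, lay above the median of the 2289 brightest genes. The wide spread belonged to PSMB8, PSMB9 and PSMB10, at 0.628, 0.523 and 0.463. PSME1 and PSME2, at 0.304 and 0.266, lay below the median of all genes. Core PSMB5 (0.268) and PSMB6 (0.277) and the assembly chaperones, with a median of 0.300, were close to them. Over the 36 genes the SD ranged from 0.0983 for PSMA6 to 0.628 for PSMB8. These are descriptions, without a test between classes.

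**Figure D3:**
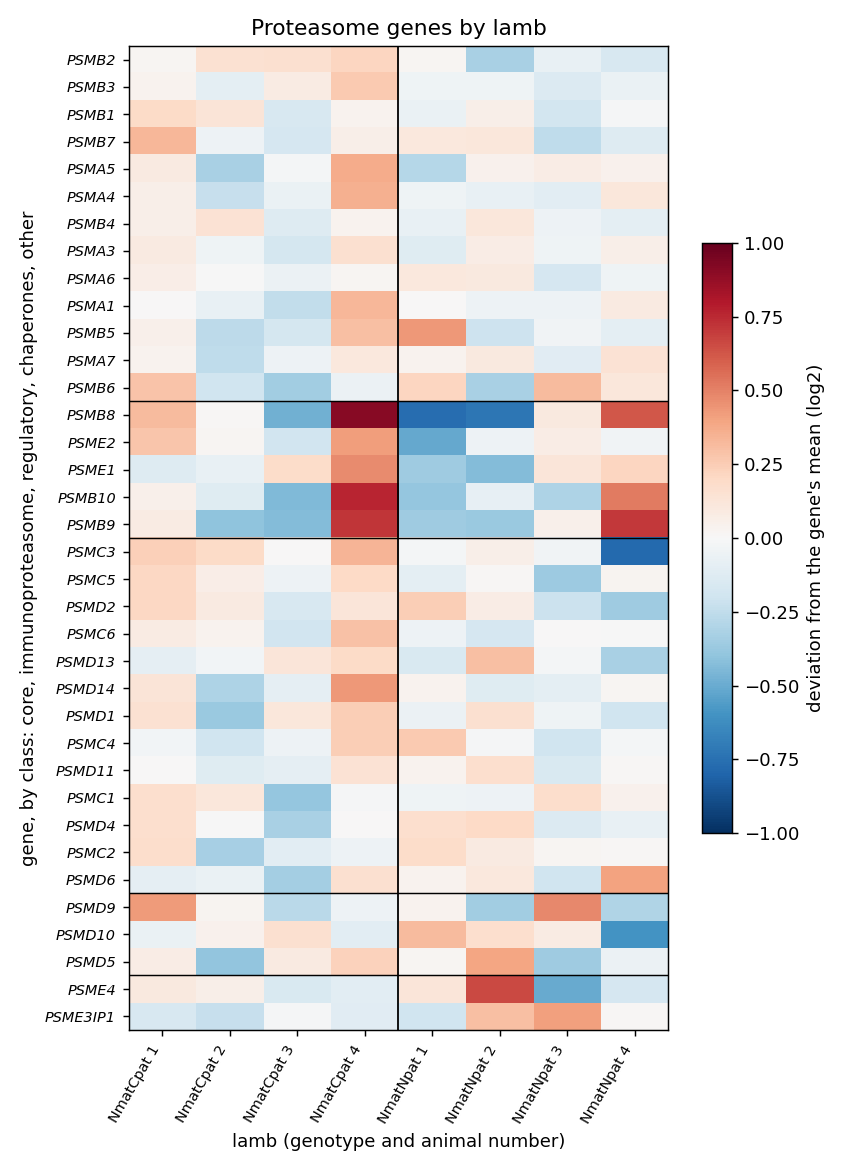
Deviation of each gene (rows, grouped by class and in the order core, immunoproteasome, regulatory, chaperones, others) from its mean over the 8 lambs, in log2 units, for each lamb (columns, the genotypes separated by a line). Of the 10 deviations of the largest size 7 are in immunoproteasome rows, all of PSMB8, PSMB9 or PSMB10. They include PSMB8 at 0.91 in NmatCpat animal 4 and -0.76 in NmatNpat animal 1. The others are PSMC3 (-0.78) and PSMD10 (-0.60) in NmatNpat animal 4 and PSME4 (0.66) in NmatNpat animal 2.

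As a group the immunoproteasome genes deviated from their means by 0.12, -0.11, -0.27 and 0.66 in NmatCpat animals 1 to 4 and -0.47, -0.33, 0.01 and 0.41 in NmatNpat animals 1 to 4. Both genotypes thus held lambs on either side of the mean, and the spread within a genotype exceeded the difference between them. The mean over the core genes stayed between -0.10 and 0.17 in every lamb, and that over the regulatory genes between -0.12 and 0.18. Here too NmatCpat animal 4 was the highest, with 6 of 13 core genes and 4 of 13 regulatory genes at their maximum there. Single genes ranged more widely than these means. Core genes ran from -0.35 (PSMB6, NmatCpat animal 3) to 0.43 (PSMB5, NmatNpat animal 1). Regulatory genes ran from -0.78 (PSMC3, NmatNpat animal 4) to 0.43 (PSMD14, NmatCpat animal 4). In NmatCpat animal 1 all 13 core genes lay above their means, by 0.10 on average.

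Markers of immune cells also varied between these lambs. The 5 leukocyte markers deviated by -0.83, -0.38, 0.06 and 0.54 in NmatCpat and 0.68, -0.30, 0.05 and 0.19 in NmatNpat. For the macrophage markers, of which 4 of 6 were measured, the deviations were -0.43, -0.63, 0.52 and 0.53 in NmatCpat and -0.55, -0.29, 0.67 and 0.19 in NmatNpat. The low leukocyte value of NmatCpat animal 1 owed much to PTPRC, which read 2.46 there against a mean of 4.90. NmatCpat animal 4 was high on both lists, as it was for the immunoproteasome. NmatNpat animal 1, lowest for the immunoproteasome, was the highest lamb for leukocyte markers and among the lowest for macrophage markers. The 7 measured lymphocyte markers, of 8 listed, ranged from -0.72 to 0.25 in NmatCpat and from -0.24 to 0.64 in NmatNpat. Many of these markers were dim, with mean levels below the median of all probe sets, 5.99, for 6 of the 7 lymphocyte markers and for PTPRC among the leukocyte markers, and whether those lay above background was not tested. Mean levels ran from 4.90 (PTPRC) to 8.39 (LAPTM5) for leukocytes, from 7.95 (CD68) to 9.23 (AIF1) for macrophages and from 2.34 (CD79A) to 7.29 (CD3E) for lymphocytes. The part of immune cell content in the spread of the immunoproteasome genes was not tested.

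**Figure D4:**
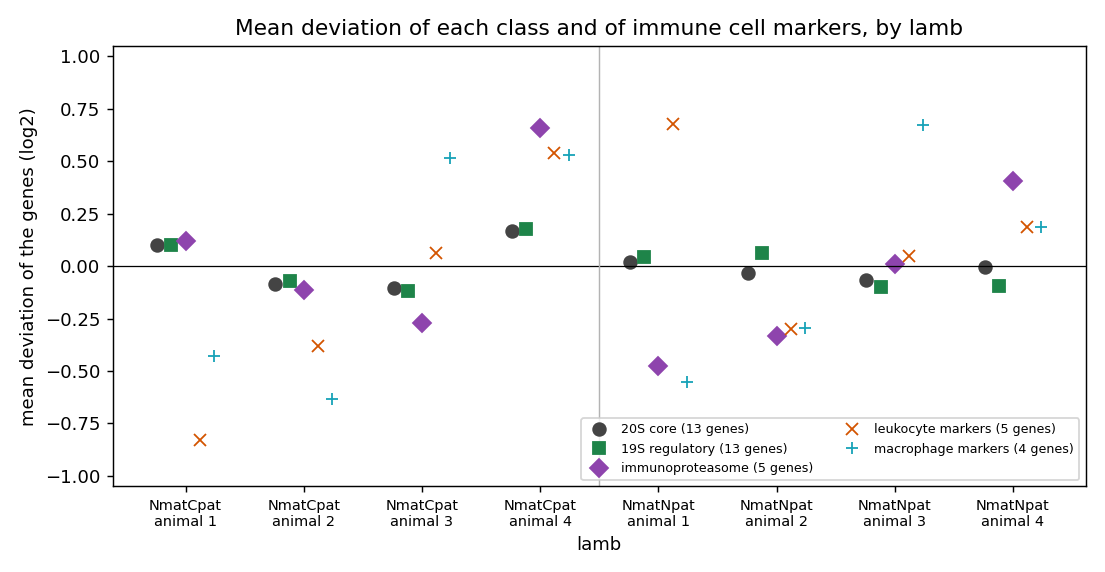
Mean deviation (y axis, log2) of the core, regulatory and immunoproteasome genes and of the leukocyte and macrophage markers from the genes' own means, for each lamb (x axis). The core and regulatory means stay near 0 in every lamb, while the immunoproteasome mean ranges from -0.47 in NmatNpat animal 1 to 0.66 in NmatCpat animal 4.

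The immunoproteasome genes varied together across the lambs. All 10 pairs had a positive Pearson's r, from 0.54 to 0.89 with a median of 0.74, against a median of 0.27 within the core, 0.29 within the regulatory particle, 0.31 between core and immunoproteasome, and 0.00996 between the 2289 brightest genes. Within the 10 pairs, 4 had an adjusted p of at most 0.05 by the exact permutation test on r, and 0 by that on Spearman's rho. PSMB8 with PSMB9 had r = 0.89 (exact permutation p = 0.00273, adjusted 0.0256) and rho = 0.79 (p = 0.0279, adjusted 0.0698). PSMB9 with PSMB10 had r = 0.89 (exact permutation p = 0.00704, adjusted 0.0256) and rho = 0.81 (p = 0.0218, adjusted 0.0698). PSMB8 with PSMB10 had r = 0.84 and PSMB8 with PSME2 r = 0.80, with adjusted exact permutation p of 0.0256 and 0.0399. PSME1 with PSME2, the partners in 1 ring, had the lowest r, 0.54.

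The count of pairs with an adjusted p of at most 0.05 depended on few lambs. Leaving out the lambs farthest from the median narrows the range and leaves n = 6, which can by itself lower r and raise its p. Without the 2 lambs farthest from the median of the first gene, which were NmatCpat animal 4 and 1 NmatNpat lamb, r was between -0.38 and 0.85, and 0 of 10 pairs had an adjusted p of at most 0.05. For PSMB8 with PSMB9 r was then 0.85, and for PSMB9 with PSMB10 0.39. Without NmatNpat animal 1 and NmatCpat animal 4 instead, PSMB9 with PSMB10 had r = 0.82 (exact permutation adjusted p = 0.229). With the values centred on the genotype means and permuted within genotypes, PSMB8 with PSMB9 alone stayed under 0.05 (r = 0.95, exact permutation adjusted p = 0.0347). PSMB9 with PSMB10 and PSMB8 with PSMB10 then had r of 0.91 and 0.84, each with an exact permutation adjusted p of 0.0521. None of the 15 pairs of an immunoproteasome gene with PSMB5, PSMB6 or PSMB7 had an adjusted p of at most 0.05 over all 8 lambs, and their median r was 0.08. With NmatCpat animal 4 and NmatNpat animal 1 set aside (n = 6), their r ran from -0.69 (PSME1 with PSMB7) to 0.78 (PSMB8 with PSMB6). Again 0 of the 15 had an adjusted p of at most 0.05. In the same 6 lambs the 10 immunoproteasome pairs ran from -0.26 (PSME1 with PSME2) to 0.85 (PSMB8 with PSMB9). These ranges overlapped, and a difference between the families of pairs was not tested.

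**Figure D5:**
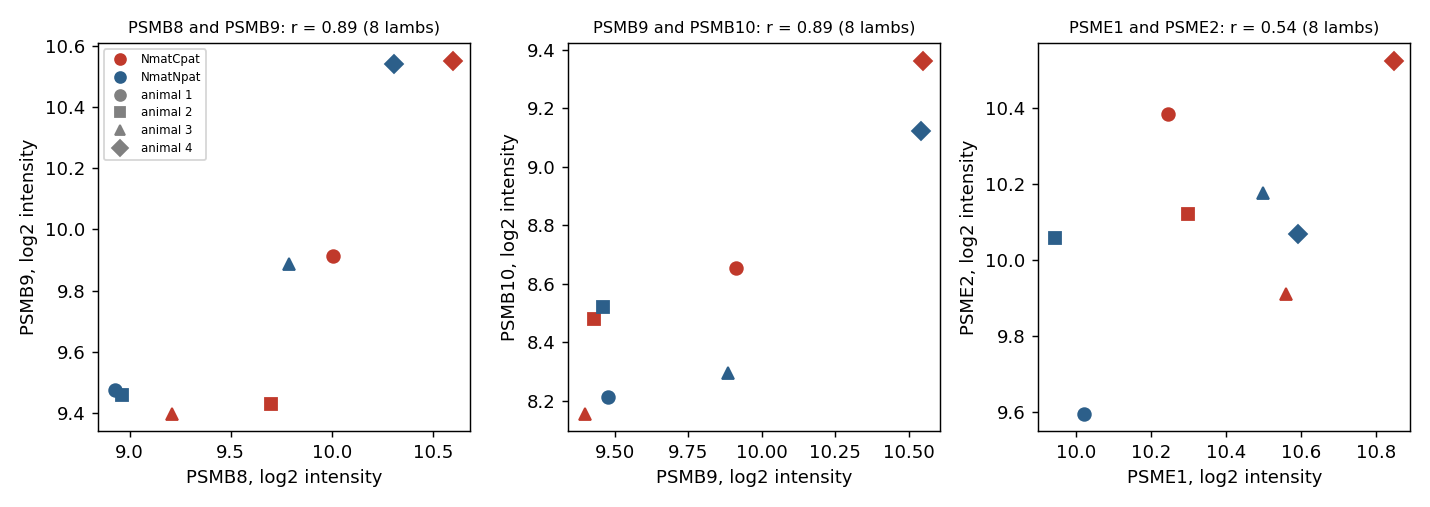
Log2 intensity of pairs of immunoproteasome genes, 1 point per lamb with colour for genotype and shape for animal number: PSMB8 against PSMB9, PSMB9 against PSMB10, and PSME1 against PSME2, with Pearson's r over the 8 lambs above each panel. In the first and second panels both lambs numbered 4 lie apart at the upper right, and the other 6 form a looser group.

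The genes that varied together are also neighbours in part. In the sheep assembly ARS-UI_Ramb_v3.0 TAP2, PSMB8, TAP1 and PSMB9 follow each other, TAP1 and TAP2 forming the transporter that carries peptides to MHC class I, and PSME2 and PSME1 are separated by EMC9 alone. PSMB10 lies elsewhere, between PSKH1 and LCAT. Of the 65 pairs of an immunoproteasome gene with 13 measured genes of interferon signalling and antigen presentation, a comparison added after the values had been seen, 50 were positive and 1 had an adjusted p of at most 0.05. That was PSMB9 with B2M, the light chain of MHC class I (r = 0.89, exact permutation p = 0.000322, adjusted 0.0210; rho = 0.95, p = 0.00114, adjusted 0.0742), whose r was 0.72 without the 2 farthest lambs (n = 6, exact permutation adjusted p = 0.738) and 0.91 without NmatNpat animal 1 and NmatCpat animal 4 (n = 6, exact permutation adjusted p = 0.0903). PSMB10 with TAP1 had r = 0.94 (exact permutation adjusted p = 0.0588) and rho = 0.88. IFNG, the interferon-gamma transcript itself, had a negative r with all 5 immunoproteasome genes, from -0.40 with PSMB8 to -0.06 with PSMB10, none with an adjusted exact permutation p of at most 0.05. Its r was -0.90 with PSMB8 and -0.93 with PSMB9 without the 2 farthest lambs (n = 6, exact permutation p = 0.0111 and 0.0222, adjusted 0.722 for both), at a mean level of 4.06, below the median of all probe sets.

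Other genes of the pathway did not pass the thresholds either. Of 28 genes that assemble, regulate or feed the proteasome, 18 were measured. Of these, 0 met P and fold by limma, against 2.91% of all genes, and 0 that P alone, against 3.79%. Their differences lay above 0 in 8 genes and below 0 in 10, with a median of -0.06. They ran from -0.46 for NFE2L1, the transcription factor that raises proteasome genes when the protease is inhibited, to 0.42 for PSMG3, a core assembly chaperone. The smallest p belonged to TXNL1, a thioredoxin bound to the 19S particle, at -0.29 (95% interval -0.63 to 0.04, adjusted p = 0.983 by limma). It was the only 1 of the 18 without overlap between the genotypes, against 2.84% of all genes (unadjusted exact permutation p = 0.0286). Of 19 genes of interferon signalling and antigen presentation, 13 were measured. Again 0 met P and fold or that P alone, against the same 2.91% and 3.79% of all genes. The differences lay above 0 in 7 and below 0 in 6, from -0.62 for IRF8 to 0.44 for IFNGR2, which had the smallest p (adjusted 0.983 by limma).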

How the data were processed

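Total RNA of perirenal fat from 8 lambs was hybridised to Affymetrix Bovine Genome arrays. Using MAS5 (version not stated), the authors turned the scanned images into linear intensity values, which they deposited for 24128 probe sets, down to 0.1. Their methods describe background correction and quantile normalization, but the deposited columns do not share quantiles. They were therefore log2-transformed and quantile-normalized here. Control probe sets, 112 in number, were dropped, and lmFit and eBayes of limma (3.58.1, under R 4.3.3) were run on the other 24016 without covariates, with Benjamini-Hochberg adjustment over all of them. The methods name no statistic, so limma was the main test. Intervals are at 95%. Symbols came from the platform annotation, which is old: 13292 probe sets had 1 symbol, 86 several and 10638 none. All 36 symbols were found in the sheep gene table. No pair of arrays held more than 0.340% identical values.

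The members, classes, lists and tests were chosen with earlier results of these data known. Shown in full were the immunoproteasome and constitutive catalytic genes and, in every other role, the gene with the smallest p. The others are given by range and count. Subunit pairs were compared by exact two-sided permutation over 70 arrangements, and correlations by exact two-sided permutation of the pairings over 40320 arrangements (576 within genotypes), adjusted within each family, with scipy 1.17.1 in Python 3.11.15. The p values for genotype rest on the variation between these lambs, which limma moderates over all probe sets. The number of lambs limits the precision. Other variance models (unmoderated, or trended and robust), weighted arrays, other normalizations (median centring, cyclic loess) and an added offset of 16 served as alternatives. So did filters on dim probe sets and on those with the suffix _s_at, _x_at or _a_at, and the animal number as a block. Further alternatives were left-out lambs, averaged probe sets, other thresholds, and the chaperones counted with the regulatory particle. The correlation alternatives were added after seeing the data. The scripts were tested on simulated data. No sequence was used.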

Additional observations from a re-analysis of the deposited data

Results flagged for a closer look

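In 2 of 72 groups of 4 lambs, 2.78%, a lamb lay far from the other 3 by Dixon's criterion, which chance alone meets in about 5% of groups. PSMA5, an alpha ring subunit, read 9.39 in NmatNpat animal 1 against 9.71 to 9.74 in the other NmatNpat lambs, on the array that also carried the neuron transcripts. PSMC3, a 19S ATPase, read 10.8 in NmatNpat animal 4 against 11.49 to 11.59 in the others. Neither reading was checked by a second probe set.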

How the results depend on the processing

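No proteasome gene met P and fold under any of the alternatives run, thresholds on P or adjusted p alone included. P of at most 0.05 at any fold was reached only by PSMB2, at 0.0169 in the linear model without moderation and 0.0445 with a trended robust variance, and by PSMC3, at 0.0440 with the trended variance, with adjusted p of 0.968 or more. The difference changed sign in some alternative for 23 of the 36 genes, in 58 of 682 combinations. The largest main difference among these genes was 0.38, that of PSMB8. Leaving out 1 lamb moved the regulatory median between -0.0503 (without NmatCpat animal 4) and 0.118 (without NmatCpat animal 2); it was 0.00328 with the mean of all probe sets and 0.04 with the chaperones included. Without NmatNpat animal 1 and NmatCpat animal 4 together the class medians were -0.01 (core), -0.02 (regulatory) and -0.05 (immunoproteasome). The count of correlated immunoproteasome pairs, 4, became 1 within genotypes, 0 without the 2 farthest lambs, 7 with arrays centred on their medians, and 0 without NmatNpat animal 1 and NmatCpat animal 4. Without 1 lamb it ran from 0 to 5, with 0 without NmatCpat animal 4 or NmatNpat animal 1 and 2 without NmatCpat animal 2 or NmatNpat animal 4; the cause was not tested. The correlations of same-numbered deviations were 0.07, 0.05, 0.18 and -0.01. None were computed between lambs of different numbers, so whether animal numbers pair the lambs was not settled. With the animal number as a replicate block, 0 genes were called and the immunoproteasome median was 0.22. Among the dimmer probe sets, PSMC5 met P and fold without NmatCpat animal 3 (-1.10) and PSMD6 without NmatNpat animal 3 (1.79).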
